A study of Mus musculus with 9 samples.

Results

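The 8 genes described here encode the receptor chains, Janus kinases (JAKs) and STAT transcription factors through which cells read interleukin-4 (IL-4), interleukin-13 (IL-13) and interferon gamma: Il4ra, Il13ra1, Ifngr1, Ifngr2, Jak1, Jak2, Stat6 and Stat3. They were taken by gene symbol, as all probe sets whose only annotated symbol was one of the 8, which gave 11 of the 12488 probe sets and 8 of the 8251 named genes on the array. CD11b+ cells, which carry the integrin alpha M chain and in the spleen include neutrophils, monocytes and macrophages, were sorted from spleens of female mice aged 8 to 12 weeks, and their RNA was hybridized to 9 MG-U74Av2 arrays from Affymetrix, which measure 1 sample each. The groups were tumor-bearing mice with the sorted cells kept for 24 h in complete medium (cultured, n = 3), tumor-bearing mice with cells taken at time 0 (fresh, n = 3) and tumor-free mice (n = 3). The labels name neither the tumor nor the mouse strain, no tumor-free cells were cultured, and the labels leave it unsaid whether replicates are different mice. The p-values therefore speak for the spread among these arrays alone, part of which may be technical.

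IL-4 binds the IL-4 receptor alpha chain, encoded by Il4ra, which pairs either with the common gamma chain or with the IL-13 receptor alpha 1 chain encoded by Il13ra1; the second pair also binds IL-13. Both signal through receptor-bound JAKs to STAT6, which in macrophages induces alternative activation genes such as Arg1. Interferon gamma binds the ligand-binding chain encoded by Ifngr1, the chain encoded by Ifngr2 joins it, and their kinases JAK1 and JAK2 pass the signal on. Interferon gamma induces antigen processing genes and GTPases. STAT3 is activated by other receptors that use JAK1 or JAK2, among them those for IL-6, IL-10 and G-CSF. In tumor-bearing mice the IL-4 receptor alpha chain is used as a surface marker of suppressive myeloid cells.

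In each group the array least correlated with the other pair is here called the array that stood apart. This rule names 1 array per group whatever the values, and the gap was widest for tumor-free 1. Leaving these arrays out changed several of the values below. Across the 8695 probe sets tested, the mean correlation with the 2 other arrays of the group was 0.859 for cultured replicate 3, against 0.889 and 0.899 for cultured 1 and 2. It was 0.887 for fresh 3, against 0.925 and 0.912 for fresh 1 and 2, and 0.825 for tumor-free 1, against 0.892 and 0.890 for tumor-free 2 and 3. The beta-actin 3'/5' signal ratio, a measure of RNA integrity, was 2.27, 2.36 and 1.16 in cultured cells, 1.60, 1.58 and 1.35 in fresh cells, and 2.57, 0.994 and 1.19 in tumor-free cells. It differed within and between the groups, and its part in the values below was not tested beyond the fit with this ratio as a covariate. Itgam, the gene of CD11b itself, had signals of 332.6 to 954.1 in cultured, 391.8 to 584.8 in fresh and 243.8 to 373.3 in tumor-free cells. The summed signal of the 8 B cell markers on the array was 480 to 2046 in cultured, 1251 to 1479 in fresh and 235.4 to 3210 in tumor-free cells, lowest on tumor-free 1. That of the 8 T cell markers was 112.9 to 212.1, 197.3 to 238 and 149.6 to 256.8 in the same order of groups. Single T cell markers differed in brightness: over all arrays Cd3g, a T cell receptor subunit gene, had 2.17 to 11.6, Cd3d 6.43 to 100.8 and Cd4 37.42 to 160.7. The offset added to every signal ahead of the log2 step was 7.83. The 11 neutrophil markers summed to 16070 to 47720 in cultured, 49570 to 61510 in fresh and 33370 to 48900 in tumor-free cells. These sums hide differences of single markers between tumor-free 1 and its pair. On tumor-free 1 Camp had 149.9, against 8809 and 10460 on tumor-free 2 and 3, and Ngp 228.4, against 8234 and 9160. In the other direction, Mmp8 had 1640, against 141.2 and 217.9, and S100a8 15960, against 11940 and 12560. The 10 monocyte and macrophage markers summed to 5790 to 12130, 10410 to 10540 and 11920 to 12360, and 1, 4 and 4 of the 10 fell in cultured against fresh, fresh against tumor-free and cultured against tumor-free cells, where 1.17%, 0.955% and 0.644% of all probe sets fell. Among these markers too tumor-free 1 differed from tumor-free 2 and 3 in both directions, with Cd14 at 7644, against 2005 and 1287, and C1qa at 380.2, against 2019 and 2426. The 5 erythroid markers summed to 1340 to 7251 in cultured, 5432 to 6745 in fresh and 923.4 to 2704 in tumor-free cells. The 9 pancreatic acinar markers summed to 12740 to 21550 in fresh cells, against 447.1 to 681.6 in tumor-free cells, and to 373 to 984.6 in cultured cells. In sorted populations measured in bulk, fewer cells of a type and less RNA per cell cannot be told apart, and the part of these markers in the values below was not tested.

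In none of the 3 comparisons did any of the 8 genes reach an adjusted p below 0.05 in limma, a linear model fitted across all probe sets. All 11 probe sets were bright enough on average to be tested, and the probe set with the highest mean represents each gene. In cultured against fresh cells 0 of 8 genes passed, where 2.69% of all probe sets tested did; the smallest adjusted p was 0.359, and 0 of 8 had an unadjusted p below 0.05, against 16.3% of all probe sets. In fresh against tumor-free cells 0 of 8 passed against a background of 1.90%, with a smallest adjusted p of 0.189, and 1 of 8 had an unadjusted p below 0.05, against 16.7% of all probe sets. In cultured against tumor-free cells 0 of 8 passed against a background of 1.23%, with a smallest adjusted p of 0.306, and again 1 of 8 had an unadjusted p below 0.05, against 14.1%. The median log2 fold change of the 8 genes was -0.05, 0.04 and -0.12 in the 3 comparisons, beside 0.02, 0.01 and 0.05 over all probe sets tested. The comparisons share arrays, so their values are not independent of each other, and the third differs from the others in combining tumor and culture.

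**Figure D1:**
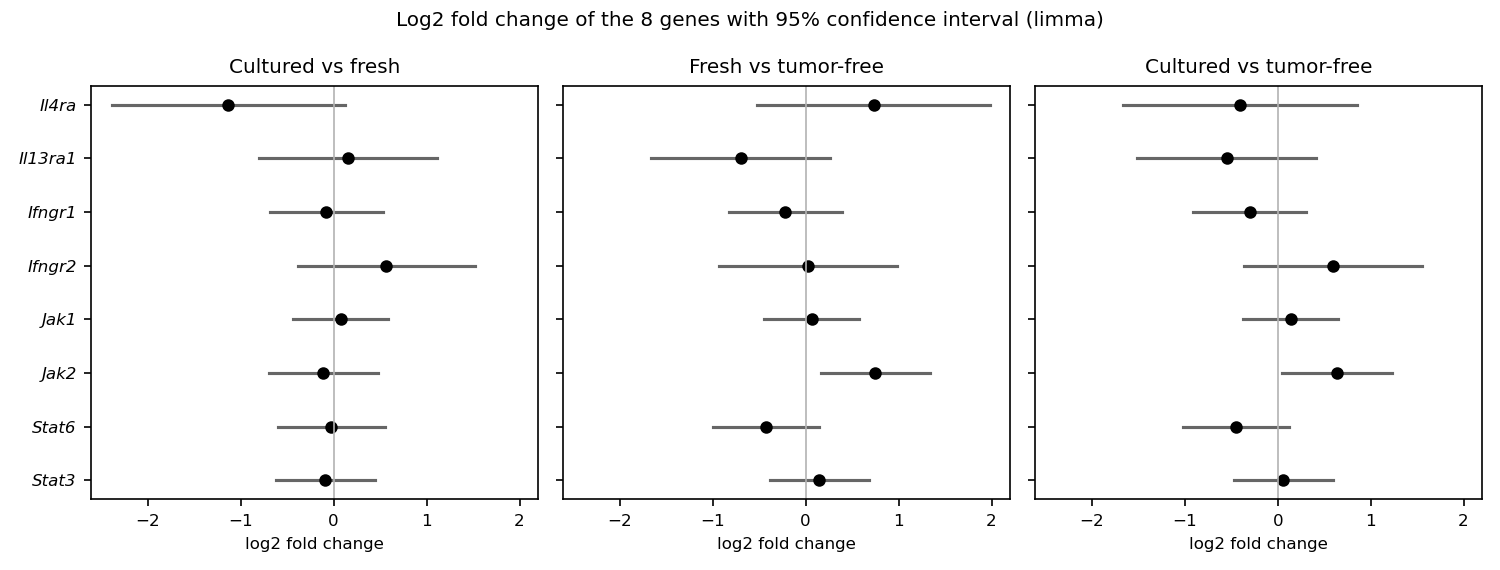
Log2 fold change, on the log2(signal + 7.83) scale, of each of the 8 genes in cultured against fresh, fresh against tumor-free and cultured against tumor-free cells; points are limma estimates and bars 95% confidence intervals. The intervals of Jak2 against tumor-free cells lie above 0, none of the 24 values passed after adjustment over all probe sets, and the widest intervals belong to Il4ra.

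Il4ra, the signal-transducing alpha chain shared by the IL-4 and IL-13 receptors, gave the widest spread of the 8. Its signal (MAS5, linear scale) was 133.2, 116.5 and 134.1 in cultured cells, 259.4, 250.7 and 373.8 in fresh cells, and 576.2, 95.38 and 87.69 in tumor-free cells. All 3 cultured arrays lay below all 3 fresh arrays, as they did for 8.81% of all probe sets tested, while the fresh arrays lay between tumor-free 1, the highest of the 9, and tumor-free 2 and 3, the lowest of the 9. The mean was 127.9 ± 9.91 in cultured, 294.6 ± 68.7 in fresh and 253.1 ± 280 in tumor-free cells (SD, n = 3 each). The log2 fold change was -1.14 ± 0.57 (SE, limma adjusted p = 0.359) in cultured against fresh cells, with a 95% confidence interval of -2.39 to 0.12. It was 0.73 ± 0.57 (adjusted p = 0.528) in fresh against tumor-free and -0.40 ± 0.57 (adjusted p = 0.81) in cultured against tumor-free cells.

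The Il4ra result depended on the tumor-free arrays. Without tumor-free 2 the value for fresh against tumor-free cells was 0.33 (adjusted p = 0.887) and without tumor-free 3 it was 0.28 (adjusted p = 0.863). Without tumor-free 1 Il4ra was higher in fresh than in tumor-free cells by 1.58 ± 0.26 on the log2 scale (limma adjusted p = 0.00468). In that fit 3.12% of all probe sets were called higher. Cultured cells were then lower than fresh cells, at -1.14 ± 0.23 (adjusted p = 0.0179, against 2.39% called lower), an unchanged difference with a smaller error, since the spread is shared among the 3 groups. The value for cultured against tumor-free cells changed sign, to 0.45 (adjusted p = 0.384). Without all 3 arrays that stood apart the values were 1.41 for fresh against tumor-free (adjusted p = 0.00199, 11.2% called higher) and -0.99 for cultured against fresh cells (adjusted p = 0.0114, 6.44% called lower). Those arrays were picked from these same data for their low correlation, which by itself tends to lower the spread within groups. The adjusted p-values of that fit are therefore too small to be taken at face value. None of the other alternatives, of 19 in all, gave Il4ra a call in these comparisons, and its adjusted p ran up to 0.887 for fresh against tumor-free and 0.609 for cultured against fresh cells. On arrays split by their bacterial spike-in signal at the median, fresh minus tumor-free was -1.15 within the high class (2 arrays against 1, which was tumor-free 1) and 1.94 within the low class (1 against 2). Cultured minus fresh was -0.99 in the high class, which holds the same 2 and 2 arrays as the value without the arrays that stood apart, and -1.43 in the low class of 1 array against 1. Without the 3 arrays that stood apart, the tumor-free arrays left were of the low class and the fresh and cultured arrays of the high class. In that setting, differences from tumor-free cells cannot be told apart from differences between the spike-in classes. The classes are a cut of a continuous value. Mean log2 spike-in signal was 9.93 and 9.89 on fresh 1 and 2, and 9.79 and 9.68 on tumor-free 2 and 3. On cultured 1 and 2, of the same class as fresh 1 and 2, it was 10.51 each.

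**Figure D2:**
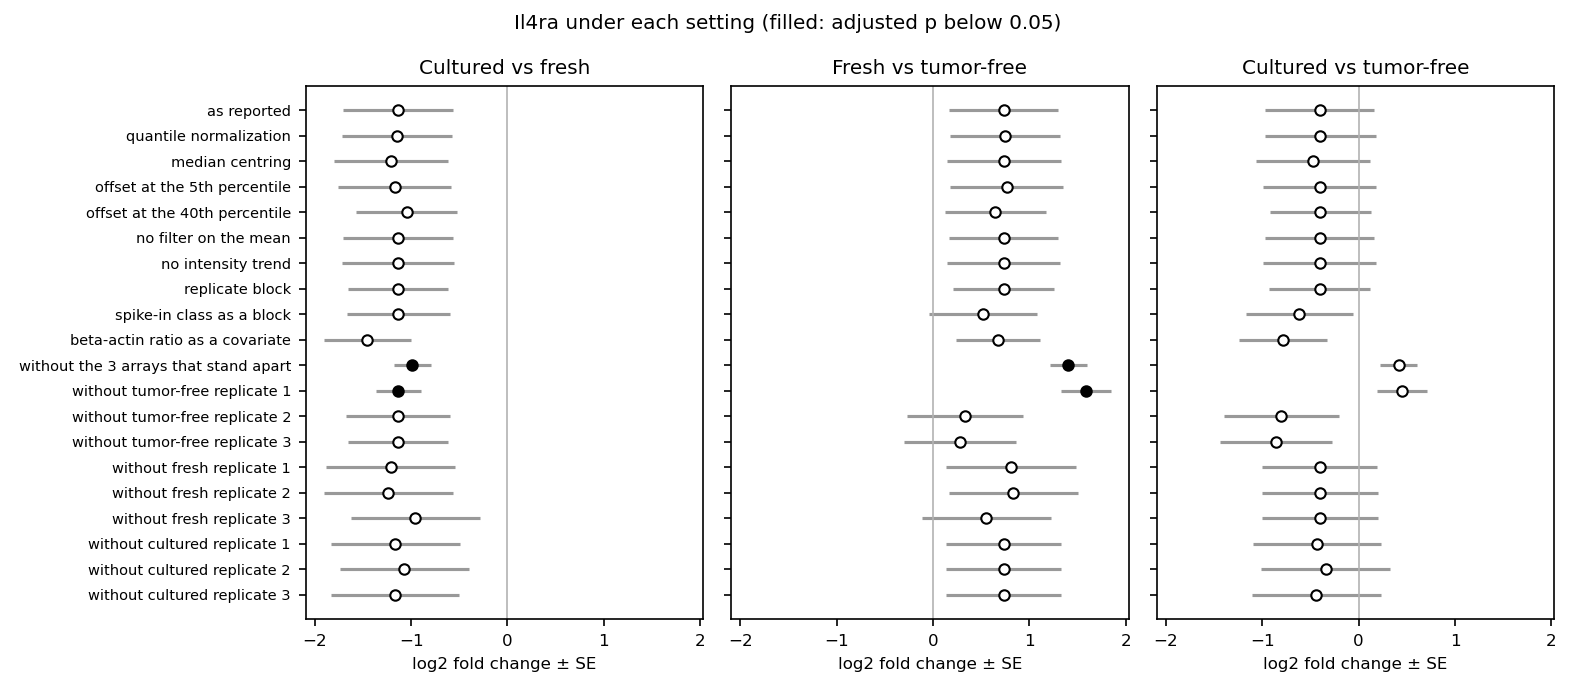
Log2 fold change of Il4ra with its standard error in the main fit (as reported) and under each of the 19 alternative settings, for cultured against fresh, fresh against tumor-free and cultured against tumor-free cells. Filled points have an adjusted p below 0.05. The value in cultured against fresh cells stayed below 0 throughout, and calls appear only in the settings that leave out tumor-free 1.

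A further Il4ra probe set was dimmer and did not follow the first. Its signals were 41.52, 39.76 and 36.61 in cultured, 35.19, 35.22 and 13.26 in fresh, and 32.66, 9.72 and 27.19 in tumor-free cells. The cultured arrays were here the highest 3 of the 9, opposite to the brighter probe set, and all cultured arrays exceeded all fresh arrays, as for 13.4% of probe sets; against tumor-free cells this held for 10.3%. The 2 probe sets correlated at r = 0.03 over the 9 arrays. None of its differences passed limma's test (smallest adjusted p = 0.493). Il4ra statements here therefore rest on 1 of 2 probe sets that disagree.

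Il13ra1 encodes the chain that pairs with the IL-4 receptor alpha chain outside the lymphoid lineages. Its signal was 173.7, 213.8 and 72.2 in cultured, 136.2, 109.4 and 130.5 in fresh, and 372.4, 186.9 and 127.8 in tumor-free cells. The fresh arrays were close together, and both other groups overlapped them, with tumor-free 1 again the highest of the 9. The log2 fold change was 0.15 ± 0.44 in cultured against fresh cells (adjusted p = 0.913) and -0.70 ± 0.44 in fresh against tumor-free cells (adjusted p = 0.428). Without tumor-free 1 fresh against tumor-free cells gave -0.29 (adjusted p = 0.704). The order of the group means, tumor-free above cultured above fresh, did not exceed the spread within the groups at any step.

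The ligand-binding chain of the interferon gamma receptor, Ifngr1, had the smaller spread of its pair. Its signal was 278.3, 219.4 and 158.9 in cultured, 200.6, 241.3 and 239.4 in fresh, and 210.7, 343.8 and 254.6 in tumor-free cells. The 3 groups overlapped in every pairing, and the log2 fold changes of -0.08 ± 0.28 (cultured against fresh, adjusted p = 0.928) and -0.22 ± 0.28 (fresh against tumor-free, adjusted p = 0.714) were smaller than their errors. Cultured against tumor-free cells were at -0.30 ± 0.28 (adjusted p = 0.679), with an interval of -0.91 to 0.31. The 95% intervals of the first pair of values, -0.69 to 0.53 and -0.83 to 0.39, leave room for changes of less than 1 on the log2 scale in either direction.

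Ifngr2, the chain that completes the interferon gamma receptor and brings in JAK2, had signals of 118, 151.1 and 210.9 in cultured, 117.2, 45.41 and 194.1 in fresh, and 90.7, 91.43 and 122.8 in tumor-free cells. The fresh arrays held both the lowest value of the 9 and the second highest. Its log2 fold change was 0.57 ± 0.43 in cultured against fresh cells (adjusted p = 0.585) and 0.02 ± 0.43 in fresh against tumor-free cells (adjusted p = 0.98). Against tumor-free cells, cultured cells were at 0.59 ± 0.43 (adjusted p = 0.585), with the groups overlapping. Single arrays moved these values: cultured against fresh was 0.041 without fresh 2, 1.0 without fresh 3 and 0.36 without cultured 3, and fresh against tumor-free was 0.55 without fresh 2 and -0.41 without fresh 3.

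**Figure D3:**
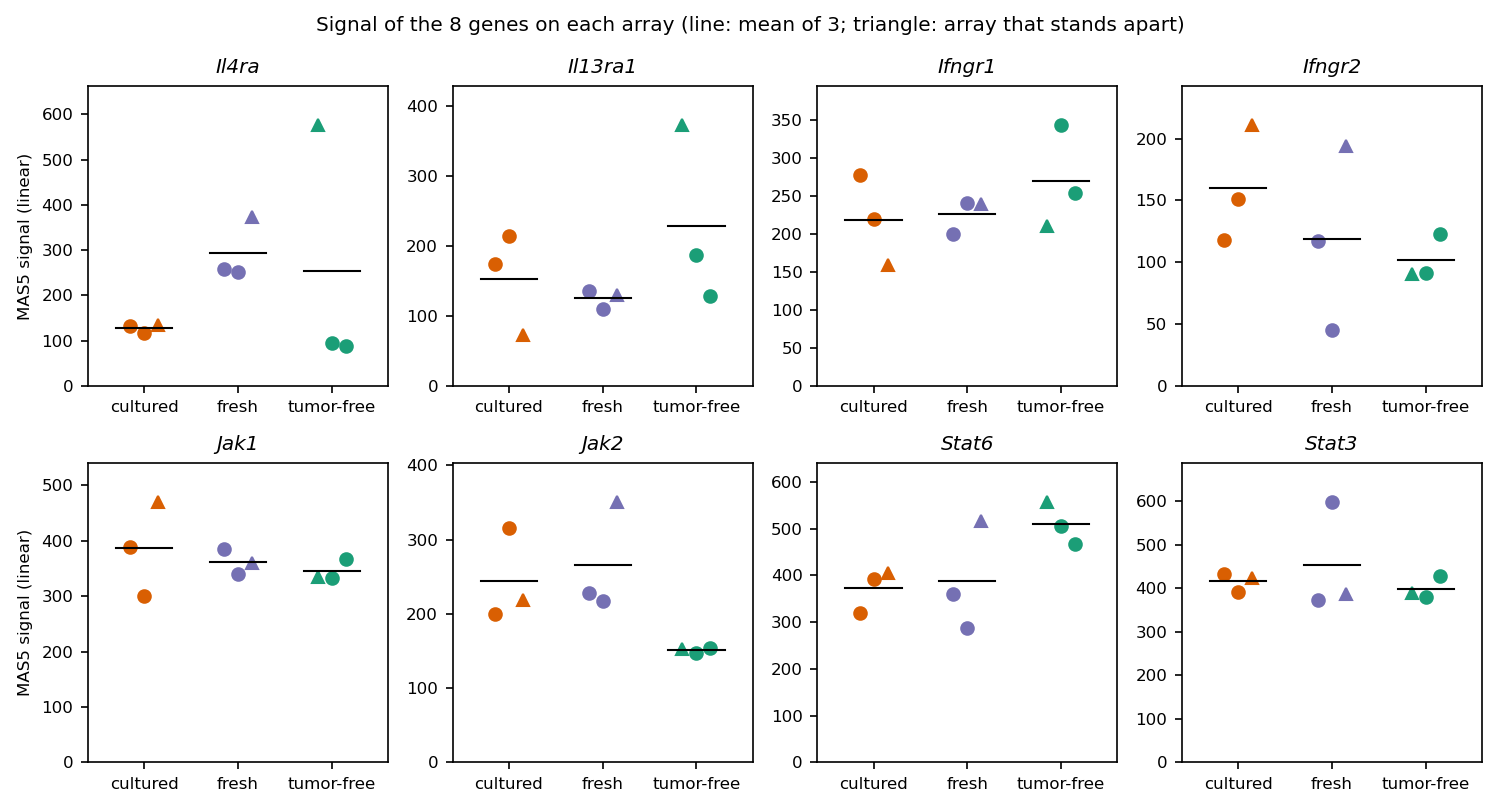
MAS5 signal (linear axis from 0) of the representative probe set of each of the 8 genes on every array, for cultured, fresh and tumor-free cells; lines are means of 3 arrays and triangles the array of each group that stood apart. Il4ra on tumor-free 1 sits at 576.2, above all other arrays, and the 3 tumor-free arrays of Jak2 lie between 146.9 and 153.6, below all arrays of tumor-bearing mice.

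In the main fit Jak2 came closest to a call against tumor-free cells. This kinase binds the interferon gamma receptor chain encoded by Ifngr2 and the receptors for erythropoietin, GM-CSF and other hematopoietic cytokines. Its signal was 199.3, 314.9 and 219 in cultured, 228.6, 217.7 and 351 in fresh, and 152.8, 146.9 and 153.6 in tumor-free cells. All 6 arrays of tumor-bearing mice lay above all 3 tumor-free arrays, and the tumor-free arrays were nearly equal. Non-overlap in this direction was seen for 10.3% of all probe sets between cultured and tumor-free cells and for 9.34% between fresh and tumor-free cells.

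The means of Jak2 were 244.4 ± 61.9 in cultured, 265.8 ± 74 in fresh and 151.1 ± 3.66 in tumor-free cells (SD, n = 3 each). The log2 fold change in fresh against tumor-free cells was 0.75 ± 0.27, with a 95% interval of 0.16 to 1.34 and a limma adjusted p of 0.189. In cultured against tumor-free cells it was 0.64 ± 0.27 (0.05 to 1.23, adjusted p = 0.306), and cultured and fresh cells differed by -0.11 ± 0.27 (adjusted p = 0.894). Over the 19 alternatives the fresh against tumor-free value stayed between 0.54 and 0.87 with no call (adjusted p 0.121 to 0.45), and it was 0.52 within the high spike-in class (2 arrays against 1) and 1.18 within the low class (1 against 2). A second, dimmer Jak2 probe set did not show the difference: its signals were 36.29, 93.16 and 20.42 in cultured, 43.45, 36.91 and 46.61 in fresh, and 49.28, 38.1 and 35.72 in tumor-free cells, with a fresh against tumor-free value of 0.04 ± 0.42 (adjusted p = 0.967).

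Jak1, the kinase that the IL-4, IL-13 and interferon gamma receptors all use, had the smallest standard error of the 8. Its signal was 389.5, 299.8 and 470.5 in cultured, 384.2, 339.7 and 359.5 in fresh, and 334.7, 332.6 and 367 in tumor-free cells. The groups overlapped in every pairing. Its log2 fold changes of 0.07 ± 0.23 in cultured against fresh (adjusted p = 0.919), 0.07 ± 0.23 in fresh against tumor-free (adjusted p = 0.903) and 0.14 ± 0.23 in cultured against tumor-free cells (adjusted p = 0.844) had 95% intervals that ran at most to -0.45 and 0.65.

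Stat6, the transcription factor of IL-4 and IL-13 signaling, had signals of 319.8, 391.2 and 405.1 in cultured, 359.6, 287 and 516 in fresh, and 557.7, 506.1 and 466.2 in tumor-free cells. All cultured arrays lay below all tumor-free arrays, as they did for 8.20% of probe sets, and fresh 3 reached into the tumor-free range. The means were 372 ± 45.8 in cultured, 387.5 ± 117 in fresh and 510 ± 45.9 in tumor-free cells (SD, n = 3 each). The log2 fold change was -0.45 ± 0.26 in cultured against tumor-free cells (adjusted p = 0.481), -0.43 ± 0.26 in fresh against tumor-free cells (adjusted p = 0.42) and -0.02 ± 0.26 in cultured against fresh cells (adjusted p = 0.98). Without the 3 arrays that stood apart the fresh against tumor-free value was -0.58, with a limma adjusted p of 0.0547. The choice of those arrays by low correlation tends to lower the error of that fit. In that setting tumor and spike-in class cannot be told apart. Within the classes, fresh minus tumor-free was -0.78 in the high class (2 arrays against 1) and 0.086 in the low class (1 against 2).

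Stat3, the factor downstream of IL-6, IL-10 and G-CSF receptors, was read by 2 probe sets of similar brightness. The first had signals of 433, 391.8 and 424.3 in cultured, 373.1, 599.4 and 388 in fresh, and 390.3, 379.7 and 428.2 in tumor-free cells, all within a narrow range apart from fresh 2. The second had signals of 287.9, 276.3 and 243.9 in cultured, 226.9, 219.9 and 355.2 in fresh, and 384.1, 278.2 and 256.8 in tumor-free cells, with fresh 2 the lowest of the 9. The 2 probe sets correlated at r = -0.47 over the 9 arrays. Their log2 fold changes had opposite signs in fresh against tumor-free cells, 0.15 ± 0.24 (adjusted p = 0.784) and -0.20 ± 0.26 (adjusted p = 0.718), and neither passed the test in any comparison.

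The 8 genes did not follow a common pattern over the arrays. Among their 28 pairs, the correlation of log2 signals over the 9 arrays ran from -0.68 for Il13ra1 and Jak1 to 0.46 for Ifngr2 and Jak2, and it was 0.34 for the receptor partners Il4ra and Il13ra1, -0.42 for Ifngr1 and Ifngr2, and 0.20 for Il4ra and Stat6. The genes whose log2 signal followed a member most closely, out of 6370 others, were Inpp5a (r = 0.979) and Emp1 (0.967) for Il4ra, Twist2 (0.958) and Tnpo3 (0.935) for Il13ra1, and Cd4 (0.921) and Mug-ps1 (0.865) for Ifngr1. For Ifngr2 they were Brd1 (0.957) and Hmgcs1 (0.914), for Jak1 the antibody variable genes Igkv9-120 (0.910) and Ighv1-54 (0.898), and for Jak2 Alas1 (0.967) and Eea1 (0.951). For Stat3 they were Slc7a3 (0.933) and St8sia2 (0.910), and for Stat6 Crebbp (0.961) and Nabp1 (0.951). These values describe 9 arrays that share groups and array quality, and the highest of 6370 correlations over so few arrays is high by selection.

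The promoters of the 8 genes were searched for the letters that STAT factors and interferon regulatory factors bind, in the window from 250 bases before to 50 bases after each start in RefSeq (GRCm38.p6), on both strands. TTC and GAA with 3 bases between them, the spacing bound by most STATs, were in 0 of 8 windows and in 8.3% of all 32851 promoters. The same letters with 4 bases between them, the spacing preferred by STAT6, were in 1 of 8 and in 6.95% of all promoters, and a repeat of GAAA with 2 bases between the copies, the letters of the interferon response element, were in 0 of 8 and 3.44%. Each motif was searched on its own, and the only match lies in the Ifngr2 promoter at chr16:91546968-91546977 on the plus strand, starting 91 bases before the gene's start, and is shown with 30 bases on either side, the match in capitals.
Ifngr2 promoter, chr16:91546938-91547007: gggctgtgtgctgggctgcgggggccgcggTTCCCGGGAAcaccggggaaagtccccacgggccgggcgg

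The ligands were dim. Ifng, the interferon gamma gene, had signals of 0.71 to 17.8 in cultured, 2.66 to 7.38 in fresh and 1.08 to 2.97 in tumor-free cells, and Il13 had 7.67 to 20.84, 5.74 to 9.91 and 5.32 to 8.4. Both were left out of the tests as too dim, as was the decoy IL-13 receptor gene Il13ra2, and no detection calls were at hand to say whether such values lie above background. Il4 had 13.91 to 35.41 in cultured, 28.58 to 28.8 in fresh and 2.51 to 40.51 in tumor-free cells, with no comparison passing limma's test (adjusted p at least 0.761). No probe set carried Il2rg, the common gamma chain gene, as its only symbol, and it was not analysed here.

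The other JAK and STAT genes gave no call either. Of 5 tested of 7 listed (Jak3, Tyk2, Stat4, Stat5a and Stat5b), 0 passed limma's test in any comparison, and 1, 0 and 1 had an unadjusted p below 0.05 in cultured against fresh, fresh against tumor-free and cultured against tumor-free cells, where 16.3%, 16.7% and 14.1% of all probe sets did. Stat4 had 62.8 ± 27.4 in cultured cells and 22.93 ± 4.65 in tumor-free cells (SD, n = 3 each), a log2 fold change of 1.13 ± 0.37 (limma adjusted p = 0.187). Stat5b had 48.9 ± 23.3 in cultured and 16.18 ± 7.4 in fresh cells, a value of 1.20 ± 0.54 (adjusted p = 0.299). Of 4 tested adaptors of the IL-4 receptor none passed, with 0, 2 and 0 at an unadjusted p below 0.05 in the same order and against the same shares. Irs2, the docking protein that carries the IL-4 receptor signal to PI3 kinase, was at -1.93 ± 0.71 in fresh against tumor-free cells (adjusted p = 0.202), and Grb2, another adaptor, at 0.59 ± 0.23 (adjusted p = 0.23).

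The inhibitors of JAK and STAT signaling, among them the SOCS feedback proteins, phosphatases, PIAS proteins and the repressor Bcl6, also stayed short of the threshold: 0 of 11 tested genes passed limma's test in any comparison, with 4, 0 and 3 at an unadjusted p below 0.05, where 16.3%, 16.7% and 14.1% of all probe sets were. Socs2 had 466.2, 598.3 and 342.3 in cultured cells, 119.3, 116.4 and 94.02 in fresh cells, and 442.2, 79.42 and 82.49 in tumor-free cells. All cultured arrays exceeded all fresh arrays, and tumor-free 1 lay among the cultured arrays. The log2 fold change in cultured against fresh cells was 1.99 ± 0.54 (adjusted p = 0.0809). Socs1, a brake on interferon gamma signaling, was at 1.02 ± 0.36 (adjusted p = 0.182) and Socs3, a brake on STAT3, at -1.17 ± 0.44 (adjusted p = 0.205) in the same comparison.

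Among genes induced by interferon gamma, 8 of the 22 tested rose in cultured against fresh cells and 0 fell in limma's test, where 1.52% of all probe sets rose, and 20 of 22 were above 0. The list median was 1.5, beside 0.02 over all probe sets. The 8 were Irf1, a transcription factor gene induced early by interferon gamma (log2 fold change 2.43 ± 0.26, adjusted p = 0.000857), Irf8 (1.87 ± 0.38, adjusted p = 0.0253), the antigen processing genes Tap1 (2.23 ± 0.31, adjusted p = 0.00452), Psme1 (2.02 ± 0.30, adjusted p = 0.0058) and Tapbp (1.67 ± 0.26, adjusted p = 0.00791), and the GTPase genes Ifi47 (3.76 ± 0.72, adjusted p = 0.0206), Igtp (3.08 ± 0.58, adjusted p = 0.0181) and Irgm1 (2.68 ± 0.62, adjusted p = 0.047). Gbp2, a further GTPase gene, was at 3.79 ± 0.90 (adjusted p = 0.0513). The list holds known targets, and whether interferon gamma raised them here was not tested. Its own gene, Ifng, was too dim to test.

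The array values of these genes differed in form. Irf1 had 748.2, 843.7 and 1315 in cultured cells, against 157.8, 151.7 and 196.7 in fresh and 344, 407 and 355.6 in tumor-free cells, so that all cultured arrays lay above all others. Ifi47 had 88.85, 231.8 and 1265 in cultured cells, against 23.84, 7.36 and 17.06 in fresh and 155.2, 178.2 and 207.2 in tumor-free cells. For this gene cultured 3 was far above its pair, and cultured 1 lay below all tumor-free arrays. Irf8 had 434.4, 953.6 and 346.8 in cultured cells, against 172.6, 156.9 and 95.36 in fresh and 339.4, 489.4 and 494.4 in tumor-free cells, with cultured 2 the highest. The count of 8 became 3, 4 and 4 without fresh 1, 2 or 3 and 5 without cultured 2, and 14 without the 3 arrays that stood apart, where 9.36% of all probe sets rose. Fitting the spike-in class as a block gave 13, as did the beta-actin ratio as a covariate. Calls over all probe sets also changed with these settings. Of the fits with 1 array left out they were fewest without fresh 1, and the block and the covariate gave more than the main fit. The changes in the list count are therefore not read as particular to the list. Irf1, Psme1 and Tap1 kept their calls in all 19 alternatives. For Tapbp the adjusted p was 0.052 once fresh 1 was left out. Igtp missed the threshold without any 1 fresh array (adjusted p up to 0.0781), Ifi47 also without cultured 2 (up to 0.0974), and Irf8 also without cultured 1 or 2 (up to 0.0849). Irgm1 kept its call in only 6 of the 19 alternatives (up to 0.159).

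**Figure D4:**
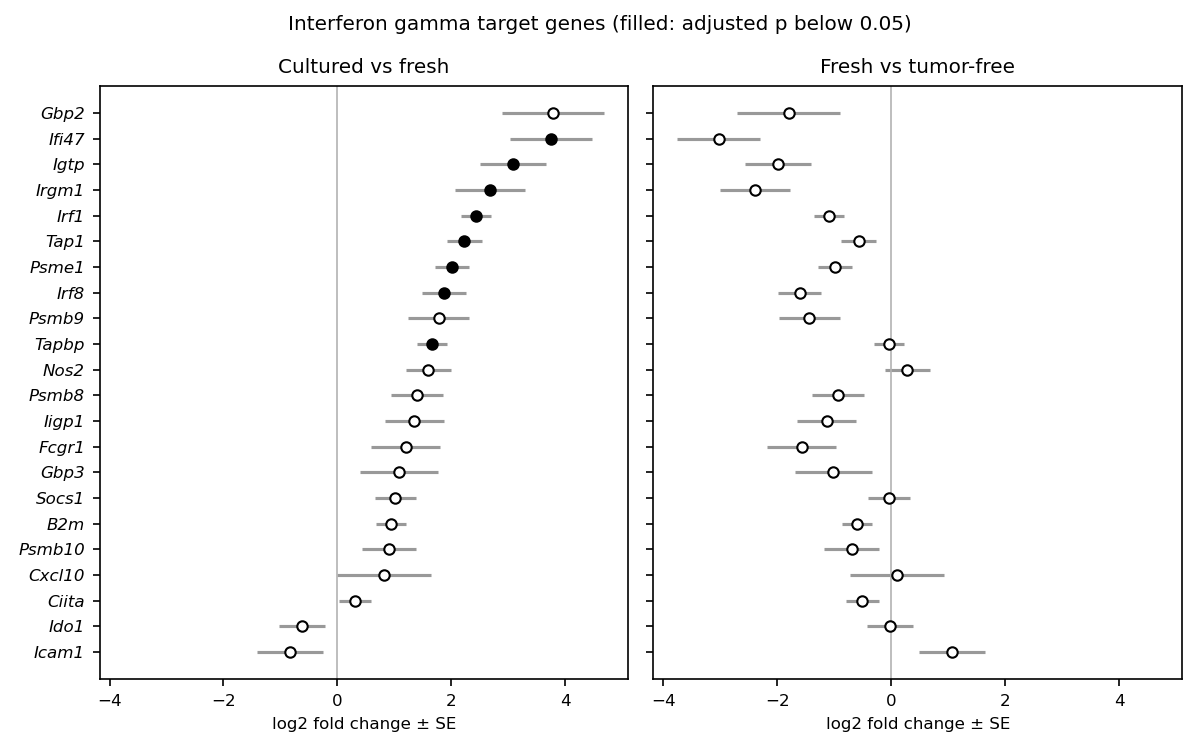
Log2 fold change with standard error of the 22 tested interferon gamma target genes in cultured against fresh and in fresh against tumor-free cells; filled points have an adjusted p below 0.05. In the first comparison 20 of 22 genes lie above 0 and 8 are filled; in the second 19 of 22 lie below 0 and none is filled.

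The list was also set against tumor-free cells. In fresh against tumor-free cells 0 of 22 genes passed limma's test, where 1.90% of all probe sets did, 9 had an unadjusted p below 0.05, against 16.7%, and the median was -0.96, with 19 below 0. In cultured against tumor-free cells 3 rose and 0 fell, where 0.587% of all probe sets rose, and the median was 0.41. These were Irf1 (1.34 ± 0.26, adjusted p = 0.0362), Tap1 (1.66 ± 0.31, adjusted p = 0.0299) and Tapbp (1.63 ± 0.26, adjusted p = 0.0147). The count was 0 without tumor-free 2, tumor-free 3 or cultured 2, and 1 without fresh 1 or fresh 2 and with median centring. Calls over all probe sets changed with these settings too, and of the fits with 1 array left out were fewest without tumor-free 3. The inducible nitric oxide synthase gene Nos2 was at 1.88 ± 0.40 (adjusted p = 0.0503).

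Genes induced by IL-4 and IL-13 through STAT6 moved in both directions. Of 15 tested genes 1 rose and 1 fell in cultured against fresh cells, where 1.52% and 1.17% of all probe sets did, and the median was 0.06. Arg1, the arginase gene, rose by 6.76 ± 0.70 (limma adjusted p = 0.000857), with signals of 2751, 2403 and 2160 in cultured, 6.2, 33.46 and 11.78 in fresh and 188.3, 16.4 and 18.63 in tumor-free cells. Mrc1, the mannose receptor gene and another alternative activation marker, fell by 2.29 ± 0.39 (adjusted p = 0.0121), with 22.74, 16.76 and 21.06 in cultured, 109.7, 98.34 and 195.3 in fresh and 860.9, 322 and 364.8 in tumor-free cells. Mrc1 also stands in the monocyte and macrophage marker list, whose summed signals are given above, and the part of those cells in its fall was not tested. Without cultured 2 the fall of Mrc1 missed the threshold (adjusted p = 0.0602), and Arg1 kept its call in all 19 alternatives.

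In fresh against tumor-free cells 0 of the 15 STAT6 target genes rose and 2 fell, where 0.955% of all probe sets fell: Mrc1 (-1.80 ± 0.39, adjusted p = 0.0433) and the transcription factor gene Klf4 (-1.65 ± 0.27, adjusted p = 0.0112). Leaving out fresh 1, fresh 2, tumor-free 2 or tumor-free 3 took the count of falls to 0, with adjusted p up to 0.181 for Mrc1 and 0.0715 for Klf4. In those fits 26, 21, 21 and 22 of all probe sets fell, against 83 in the main fit. The count of falls was 1 without cultured 1 or cultured 2, with quantile normalization, with median centring, with no filter and with no intensity trend. It was 5 without the 3 arrays that stood apart, where 13.5% fell. In cultured against tumor-free cells Arg1 rose (5.60 ± 0.70, adjusted p = 0.00519) and Mrc1 (-4.09 ± 0.39, adjusted p = 0.00142) and Klf4 (-2.42 ± 0.27, adjusted p = 0.0032) fell, where 0.644% of all probe sets fell, and these 3 calls held in all 19 alternatives. Without tumor-free 1 the counts were 3 higher and 4 lower, where 3.05% and 3.04% of all probe sets were. The secreted chitinase-like gene Chil3 was at -2.15 ± 0.64 in cultured against fresh (adjusted p = 0.109) and 2.31 ± 0.64 in fresh against tumor-free cells (adjusted p = 0.0999). Arg1 was at -1.16 ± 0.70 in fresh against tumor-free cells (adjusted p = 0.417), with the groups overlapping.

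Among 18 tested STAT3 target genes, 1 fell in cultured against fresh cells, where 1.17% of all probe sets fell. In fresh against tumor-free cells 1 rose and 2 fell, where 0.943% rose and 0.955% fell, and in cultured against tumor-free cells 2 fell, where 0.644% did. Il10, the gene of the anti-inflammatory cytokine interleukin-10, accounted for the rise and for the fall in culture. Its signals were 5.44, 6.98 and 41.01 in cultured, 111.4, 107.2 and 137.1 in fresh and 3.5, 19.63 and 3.1 in tumor-free cells, with the fresh arrays above all others. The log2 fold change was -2.57 ± 0.53 in cultured against fresh (limma adjusted p = 0.0272) and 3.06 ± 0.53 in fresh against tumor-free cells (adjusted p = 0.015). Leaving out tumor-free 3, fresh 1 or fresh 2 ended the rise (adjusted p up to 0.0794), and leaving out fresh 1, 2 or 3 or cultured 1 or 2 ended the fall (up to 0.126), as did the lowest offset.

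Cebpd and Ccnd1, a transcription factor and a cyclin gene, fell in fresh against tumor-free cells by 1.87 ± 0.30 (adjusted p = 0.00897) and 1.60 ± 0.32 (adjusted p = 0.0304), and Junb (-2.47 ± 0.46, adjusted p = 0.0283) and Ccnd1 (-1.88 ± 0.32, adjusted p = 0.0192) fell in cultured against tumor-free cells. Cebpd lost its call without fresh 1 or fresh 2 (adjusted p up to 0.0667). Ccnd1 in fresh cells lost it without tumor-free 2 or 3, fresh 1 or 2 or cultured 2 (up to 0.116). In cultured cells Junb lost it without tumor-free 2 or 3, fresh 1 or cultured 1 or 2 (up to 0.128), and Ccnd1 without tumor-free 2 or 3 or cultured 1 or 2 (up to 0.0874). The median of the STAT3 target list was -0.58 in cultured against fresh, 0.48 in fresh against tumor-free and -0.33 in cultured against tumor-free cells.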

How the data were processed

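The authors deposited 1 linear intensity (signal) per probe set and array, computed with MAS5 per the submitters' processing notes; no version or settings were at hand. The 2% trimmed means of the arrays were nearly equal, so the values were used as deposited. The number of arrays limits the precision. An offset of 7.83, the 20th percentile over the whole table, was added to signals before log2, and fold changes on this scale understate those of dim genes. After removal of 66 control probe sets and of the dimmest 30% by mean, 8695 were kept. With limma 3.58.1 (R 4.3.3), all 9 arrays entered a single fit of 3 group means with an intensity trend and 6 residual degrees of freedom. Tests were two-sided and p-values adjusted by Benjamini-Hochberg across the 8695; the fit was also tested on simulated data. Gene symbols came from the platform annotation, matched by gene ID to RefSeq of GRCm38.p6, which changed 0 symbols. The members, the lists and the naming rule (all probe sets of the 8 genes, called genes and up to 4 largest changes of a list, and the 2 most similar genes of each member) were chosen with earlier results of these data known. The main fit did not pair arrays by replicate number. Same-numbered deviations from group means correlated between -0.2 and 0.259 over the 3 comparisons. In cultured against fresh cells these were 0.165, 0.0286 and 0.259, and unlike numbers gave -0.282 to 0.227. Such values cannot decide whether arrays were paired. Alternatives were 2 scalings, 2 offsets, no filter, no trend, the replicate block, the spike-in class, the beta-actin ratio and arrays left out.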

Additional observations from a re-analysis of the deposited data

How the results depend on the processing

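No member passed the test under any of the 19 alternatives except Il4ra, in the 2 settings without tumor-free 1 described above. The number of arrays limits the precision, and no detection calls were used to set dim signals against background. The replicate number as a replicate block gave 258, 200 and 144 called probe sets in cultured against fresh, fresh against tumor-free and cultured against tumor-free cells, against 234, 165 and 107 without it, and changed no call of a member. In the same order, the counts were 556, 277 and 177 when the spike-in class was blocked on, 441, 402 and 204 with the beta-actin ratio as a covariate, and 1374, 2147 and 1810 without the 3 arrays that stood apart. Those 3 were picked as the least correlated of each group, so leaving them out tends to lower the spread within groups and to raise the counts. With those 3 left out, the tumor-free arrays kept were of the low spike-in class and all others of the high class. Leaving out 1 array gave 74 to 489, 63 to 623 and 24 to 529; the highest count of each came without tumor-free 1 and the lowest without fresh 1, fresh 1 and tumor-free 3. The cause of these changes was not tested.

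Signs of members turned as follows, in no case for a called value. Without the 3 arrays that stood apart, cultured against fresh was 0.16 for Ifngr1, -0.078 for Jak1, 0.16 for Jak2 and 0.14 for Stat6, fresh against tumor-free was -0.48 for Ifngr2, and cultured against tumor-free was 0.42 for Il4ra, 0.30 for Il13ra1, -0.031 for Jak1 and 0.075 for the second Stat3 probe set. With the beta-actin ratio cultured against fresh was -0.14 for Il13ra1, -0.18 for the dimmer Jak2 and -0.031 for the second Stat3 probe set, and cultured against tumor-free -0.17 for the dimmer Jak2 probe set. With the spike-in class that probe set was at -0.11 in both comparisons with tumor-free cells. Quantile normalization gave it -0.040 and -0.012 in cultured against fresh and tumor-free cells and Stat6 0.046 in cultured against fresh cells. Median centring gave it -0.066 and -0.023, the first Stat3 probe set -0.0099 in cultured against tumor-free cells and the second -0.028 in cultured against fresh cells. The lowest offset gave it -0.024 in cultured against fresh cells.

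Leaving out 1 array, cultured against fresh ran from -0.14 to 0.60 for Il13ra1, -0.27 to 0.12 for Ifngr1, -0.076 to 0.24 for Jak1, -0.30 to 0.10 and -0.50 to 0.42 for the brighter and dimmer Jak2, -0.21 to 0.13 and -0.078 to 0.26 for the first and second Stat3 probe sets, and -0.22 to 0.20 for Stat6. Fresh against tumor-free ran from -0.15 to 0.56 for the dimmer Il4ra, -0.41 to 0.55 for Ifngr2, -0.035 to 0.16 for the dimmer Jak2 and -0.067 to 0.27 for the first Stat3 probe set. Cultured against tumor-free ran from -0.86 to 0.45 for Il4ra, -0.011 to 0.31 for Jak1, -0.46 to 0.46 for the dimmer Jak2 and -0.28 to 0.0073 for the second Stat3 probe set.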

Other observations

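Other cytokine receptors that signal through JAK1 or JAK2 changed in a few cases. Of 14 tested, 1 fell in cultured against fresh cells, 1 rose and 1 fell in fresh against tumor-free cells, and 1 fell in cultured against tumor-free cells, where 1.17% fell, 0.943% rose, 0.955% fell and 0.644% fell of all probe sets. Lifr, the receptor gene for leukemia inhibitory factor, had signals of 47.16, 50.35 and 21.09 in cultured, 173.5, 159.3 and 201.1 in fresh and 68, 35.73 and 32.28 in tumor-free cells. It fell by 2.03 ± 0.35 in cultured against fresh (limma adjusted p = 0.0131) and rose by 1.86 ± 0.35 in fresh against tumor-free cells (adjusted p = 0.0246). Leaving out fresh 1 or 2 ended the fall (adjusted p up to 0.062), and leaving out tumor-free 2 or 3 or any 1 fresh array ended the rise (up to 0.12). Csf3r, the G-CSF receptor gene, had 354.6, 278 and 491.3 in cultured, 530.4, 473.4 and 527.8 in fresh and 964.9, 1596 and 1351 in tumor-free cells. It fell by 1.79 ± 0.28 (limma adjusted p = 0.0133) and 1.31 ± 0.28 (adjusted p = 0.0413) in cultured and in fresh against tumor-free cells. The first fall was lost without tumor-free 2 or 3 or cultured 1 or 2 (adjusted p up to 0.0796) and the other without tumor-free 2 or 3, fresh 1, 2 or 3 or cultured 1, with median centring and with no intensity trend (up to 0.201).

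Tumor-free 1, on which Il4ra was highest, also stood above both other tumor-free arrays by more than 1 on the log2 scale for 5 of 15 STAT6 target genes (Arg1, Chil3, Mrc1, Ccl17 and Cish), 3 of 11 inhibitors (Socs2, Socs3 and Cish) and 5 of 18 STAT3 target genes, with Cish and Socs3 each in 2 of these lists. It did so for 1 of 22 interferon gamma target genes, 0 of 5 other JAK and STAT genes, 0 of 4 adaptors and 2 of 14 other receptors, against 6.62% of all probe sets tested. It stood below both for Alox15, Irf4 and Pparg of the STAT6 targets and for Ptpn6 and Ptprc of the inhibitors, and such values made up 8.04% of all probe sets. Ccl17, a chemokine gene, had 501 on tumor-free 1 and 3.5 and 3.96 on its pair. Cish, a feedback inhibitor, had 343.4, against 50.05 and 65.59. These are values of 1 array, and no comparison was made from them.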
